A study of Bos taurus with 24 samples.

Results

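The genes described here are LPL (ENSBTAG00000012855), CD36 (ENSBTAG00000017866), FABP3 (ENSBTAG00000016819) and ABCG2 (ENSBTAG00000017704). They were chosen by identifier as genes that bring blood fatty acids into milk-producing cells, together with a transporter that moves substances into milk, and they are 4 of the 24616 bovine genes counted. Their levels were read in liver and lactating mammary gland of 12 dairy cows, each of which gave both tissues after slaughter, so 24 libraries were used. For 12 weeks, 6 cows had eaten a ration built on alfalfa hay, which is a leguminous forage, and 6 a ration built on corn stover, the dry plants that remain once the grain is taken. Each diet had 1 cow of parity 2, and the others were of parity 3. Days in milk ran from 231 to 246 on alfalfa hay. On corn stover cow 6 was at 228 days and the others at 245 to 254, so stage of lactation also went partly with diet. Milk yield ran from 23.3 to 29.0 kg per day on alfalfa hay (26.3 ± 2.66, SD, n = 6) and from 17.1 to 23.3 kg per day on corn stover (20.4 ± 2.03, SD, n = 6).

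A ruminant makes milk fat from fatty acids built in the gland itself and from fatty acids taken out of the blood. LPL, lipoprotein lipase, works on the inner wall of capillaries, where it cuts fatty acids from the triglycerides of circulating lipoproteins. CD36 is a membrane protein that binds long-chain fatty acids and helps them into the cell, and it is also carried on the membrane around milk fat globules. FABP3, a small fatty acid binding protein, carries fatty acids through the cytoplasm. ABCG2 uses ATP to pump a wide range of compounds, riboflavin and many drugs among them, and sits on the milk-facing side of the secretory cell and on the bile-facing side of the liver cell. LPL and CD36 are also made by cells of other types, including adipocytes, muscle cells and macrophages. In whole tissue, fewer cells of a type and less RNA per cell cannot be told apart.

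Library totals ran from 22579051 to 37954234 counts. Levels are stated in normalised CPM, that is, counts divided by the library total in megareads, with each total scaled by a TMM factor (a trimmed mean of ratios between libraries of 1 tissue). They serve to compare 1 gene between libraries of the same tissue. They do not compare 1 gene with another, because gene length is not taken out. All 4 genes passed the filter on low counts in both tissues. In mammary gland, corn stover cow 6 stood apart from the other 11 on the first principal component (72.4 against -42.0 to 22.6), and in liver the 2 libraries numbered 1 did (-81.4 on alfalfa hay and -70.4 on corn stover). The labelled tissues could not be checked against marker genes by name, because the identifiers in the files are not paired with names.

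The first comparison set mammary gland against liver. All 4 genes were higher in mammary gland, in every cow. FABP3 showed the widest gap, LPL and CD36 differed by about the same factor, and ABCG2, which both tissues use, differed least. Over 13760 genes, 68.2% passed the test between the tissues and 33.5% passed it as higher in mammary gland (edgeR's quasi-likelihood test, p adjusted by Benjamini-Hochberg below 0.05). That test held no term for the cow, so its intervals and p-values do not use the pairing of the tissues.

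Median LPL in mammary gland was 1337 CPM for alfalfa hay cows, against 7.26 CPM in their livers, and 1130 CPM for corn stover cows, against 8.39 CPM in theirs. These levels were scaled within each tissue, so their ratio differs from the fold below, for which all 24 libraries were scaled together. The lowest mammary library held 19529 LPL reads, and the highest liver library held 652. Over all 24 libraries the mammary level was 259-fold the liver level (95% interval 162 to 415, log2 difference 8.02 ± 0.33 SE, edgeR adjusted p = 2.28e-17). Within single cows the ratio ran from 84.0 to 947 with a median of 319.

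CD36 was 198-fold higher in mammary gland (95% interval 135 to 292, log2 difference 7.63 ± 0.27, edgeR adjusted p = 1.35e-18). Ratios within cows ran from 81.2 to 496 with a median of 194. The gene was still plainly read in liver, where libraries held 451 to 1101 reads. The intervals of LPL and CD36 overlap over most of their length, and the difference between the 2 ratios was not tested.

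FABP3 was 2527-fold higher in mammary gland (95% interval 1449 to 4407, log2 difference 11.30 ± 0.39, edgeR adjusted p = 8.37e-19). Ratios within cows ran from 1075 to 9258 with a median of 3069. Only 37 of the 13760 genes differed more strongly in favour of the mammary gland, against 133 for LPL and 171 for CD36. The size of this ratio rests on small liver counts, which ran from 13 to 116 reads per library.

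ABCG2 was 7.20-fold higher in mammary gland (95% interval 5.13 to 10.1, log2 difference 2.85 ± 0.24, edgeR adjusted p = 4.89e-11). Ratios within cows ran from 3.76 to 15.8 with a median of 7.25. Its interval lies below those of the other 3 genes, and 970 genes had a larger ratio.

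For each of the 4 genes the lowest mammary library lay above the highest liver library, which was so for 10.8% of all genes tested. Scaling matters for the size of these ratios. With library totals alone the folds were 131 for LPL, 101 for CD36, 1265 for FABP3 and 3.79 for ABCG2, and the median log2 difference over all genes was then -0.998 in place of -0.02. Relative to that median the 4 genes barely moved. ABCG2, for example, lay 2.92 above it on library totals and 2.86 above it with TMM factors.

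**Figure D1:**
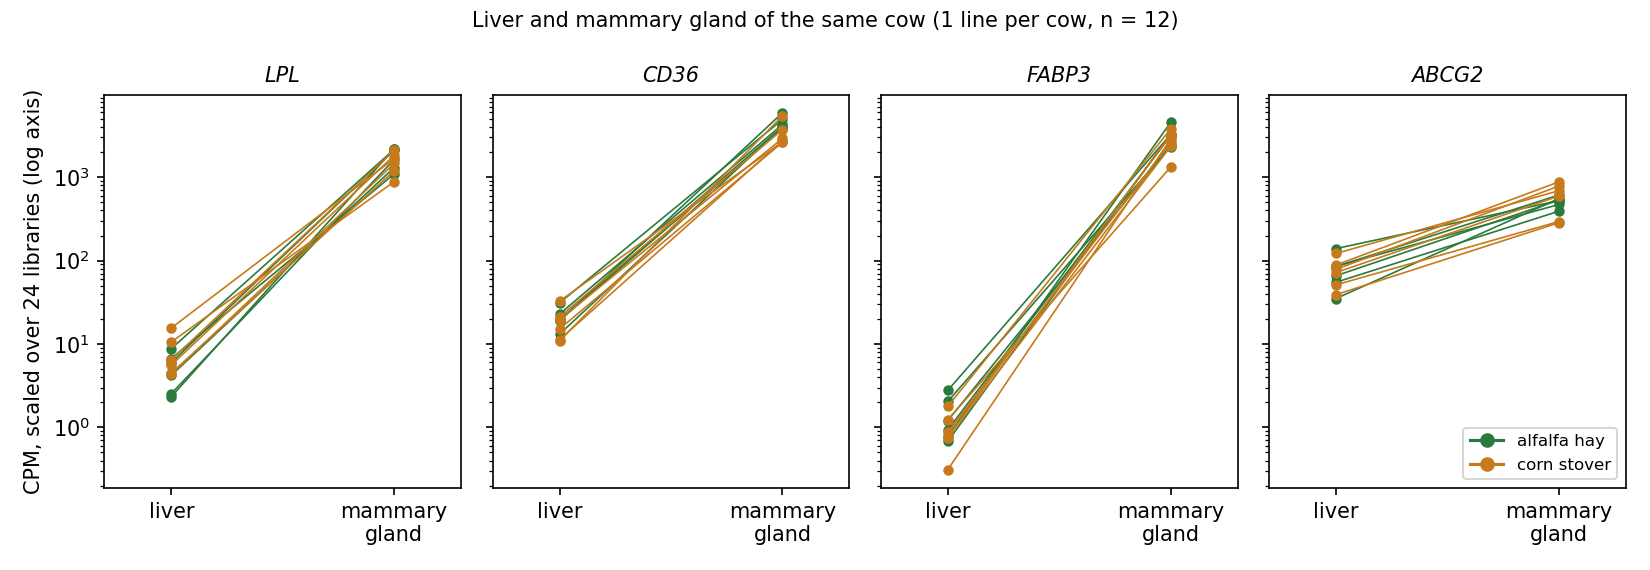
Level of each gene in the liver and in the mammary gland of the same cow, as CPM on a log10 axis with all 24 libraries scaled together. Each line joins the 2 tissues of 1 cow, 6 cows per diet. All 12 lines rise from liver to mammary gland in each panel, and the rise is smallest for ABCG2.

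The second comparison asked how the diets differed in mammary gland. None of the 4 genes passed the test. CD36 had the largest diet difference of the 4 in the fit by diet alone, with 5 of the 6 cows on corn stover under every alfalfa hay cow. LPL and FABP3 averaged lower on corn stover by less than the spread between cows, and ABCG2 averaged slightly higher but was far more scattered on corn stover. No gene at all passed among 12027 tested (0% called by edgeR, 784 genes at an unadjusted p below 0.05). DESeq2 called 42 genes (0.349%) and limma voom called 0, and none of the genes described here was among the 42.

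LPL, which frees fatty acids from lipoproteins, ran from 772 to 1561 CPM on alfalfa hay with a median of 1337, and from 632 to 1508 CPM on corn stover with a median of 1130. The groups overlapped over most of their range, with 1 corn stover cow below all alfalfa hay cows and 2 alfalfa hay cows above all corn stover cows. The means were 1248 ± 332 and 1087 ± 320 CPM (SD, n = 6 each). The log2 difference, corn stover minus alfalfa hay, was -0.20 ± 0.24 SE, with a 95% interval from -0.72 to 0.32 (edgeR adjusted p = 0.947).

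CD36, the membrane step of uptake, ran from 2681 to 4322 CPM on alfalfa hay with a median of 2941, and from 1855 to 3768 CPM on corn stover with a median of 2033. Corn stover cow 6 alone reached into the alfalfa hay range. The next highest corn stover cow, cow 4, was at 2658 CPM, just under the lowest alfalfa hay value. Means were 3215 ± 625 and 2373 ± 745 CPM (SD, n = 6 each), a ratio of 0.738. The log2 difference was -0.44 ± 0.22, with a 95% interval from -0.91 to 0.04 (edgeR adjusted p = 0.812).

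This difference was not unusual among the genes of these libraries. A smaller p was found for 8.38% of the genes tested and a larger absolute log2 difference for 18.1%. Without corn stover cow 6 the log2 difference was -0.62 and the adjusted p 0.456, the lowest of any setting tried, and over all settings the adjusted p reached 0.99991. Cow 6 on corn stover had the lowest yield of all 12 cows (17.1 kg per day) and was earliest in lactation among the corn stover cows (228 days in milk against 245 to 254). Whether either fact bears on its CD36 level was not tested. On library totals the same count of corn stover cows, 5 of 6, lay under every alfalfa hay cow. The place of cow 6 did depend on the scaling: on library totals it lay above every alfalfa hay cow (3806 CPM against at most 3412).

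FABP3, the carrier inside the cell, ran from 1652 to 3327 CPM on alfalfa hay with a median of 2256, and from 945 to 2700 CPM on corn stover with a median of 1974. Here 2 cows on corn stover were under every alfalfa hay cow, and 1 on alfalfa hay was over every corn stover cow. The means were 2261 ± 606 and 1918 ± 602 CPM (SD, n = 6 each). The log2 difference was -0.24 ± 0.25, with a 95% interval from -0.77 to 0.30 (edgeR adjusted p = 0.931).

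ABCG2, the transporter, ran from 275 to 442 CPM on alfalfa hay with a median of 380. On corn stover it ran from 208 to 627 CPM with a median of 453. The 6 alfalfa hay cows sat inside the corn stover range, with 3 corn stover cows above all of them and 2 below. The means were 367 ± 57.2 and 417 ± 176 CPM (SD, n = 6 each), and the coefficient of variation was 15.6% among alfalfa hay cows against 42.3% among corn stover cows. The difference in spread between the diets was not tested. The log2 difference of the means was 0.19 ± 0.27, with a 95% interval from -0.38 to 0.75 (edgeR adjusted p = 0.956).

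Single cows moved these small differences. With each library left out in turn, the log2 difference ran from -0.31 to -0.075 for LPL (weakest without corn stover cow 1), from -0.36 to -0.088 for FABP3 (-0.094 without alfalfa hay cow 4, weakest without corn stover cow 1) and from 0.033 to 0.32 for ABCG2 (smallest without corn stover cow 4). With days in milk as a covariate the order of the genes changed, to -0.34 for LPL, -0.33 for FABP3 and -0.31 for CD36, none of them past the test.

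Of the 12027 genes, 41 (0.341%) had no overlap between the diets in mammary gland, and none of these was among the 4. Within diets, the coefficients of variation of LPL (27.9%), CD36 (24.6%), FABP3 (28.9%) and ABCG2 (33.5%) lay close to the median of all genes (31.4%). Among the 14 mammary genes within 2-fold of the CD36 level, itself included, 0% had a smaller coefficient than CD36 (median 37.5%). The share in the level class was 30% for LPL, 21.7% for FABP3 and 68.7% for ABCG2 (medians 34.2%, 37.3% and 27.5%). The 95% intervals leave room for changes in either direction: the lower bounds allow corn stover levels of 0.608 of the alfalfa hay level for LPL, 0.531 for CD36 and 0.585 for FABP3, and the upper bound allows 1.68 times for ABCG2.

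**Figure D2:**
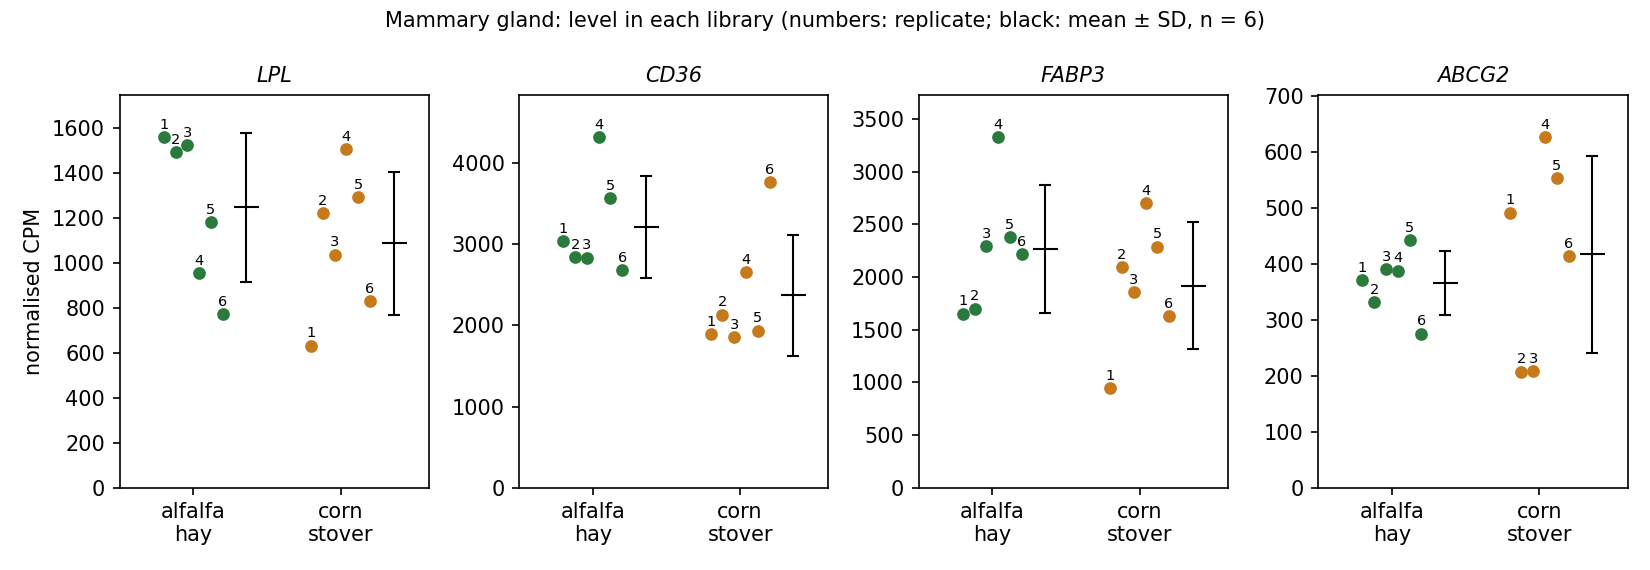
Normalised CPM of the 4 genes in each mammary library by diet, with cow numbers beside the points and the mean ± SD of 6 cows in black. The axes start at 0 and differ between genes. For CD36, 5 corn stover cows lie below all alfalfa hay cows and cow 6 lies among them; for ABCG2, the corn stover points spread both above and below the alfalfa hay points.

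In liver the same contrast gave no call either. LPL averaged higher on corn stover, FABP3 lower, and CD36 and ABCG2 were close, all within wide intervals. Among 12929 genes edgeR called none (0%), 354 genes had an unadjusted p below 0.05, and DESeq2 called 3 (0.0232%), none of them described here. The diets failed to overlap for 8 genes (0.0619%), again none of the 4.

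Liver LPL ran from 3.32 to 12.4 CPM on alfalfa hay with a median of 7.26, and from 6.04 to 22.2 CPM on corn stover with a median of 8.39. The 3 lowest livers were all from alfalfa hay cows and the 2 highest from corn stover cows 2 and 1. Means were 7.20 ± 3.55 and 10.95 ± 6.31 CPM (SD, n = 6 each), and counts ran from 57 to 652 reads. The log2 difference was 0.60 ± 0.38, with a 95% interval from -0.22 to 1.41 (edgeR adjusted p = 0.99998). Without corn stover cow 2 it was 0.26, and without both livers numbered 1 it was 0.36.

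Liver CD36 ran from 18.5 to 44.3 CPM on alfalfa hay with a median of 27.6. On corn stover it ran from 15.2 to 44.8 CPM with a median of 24.5. The groups shared almost the whole range. The log2 difference was -0.20 ± 0.27, with a 95% interval from -0.78 to 0.37 (edgeR adjusted p = 0.99998).

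Liver FABP3 was near the limit of what was read. It ran from 0.965 to 3.91 CPM on alfalfa hay with a median of 1.51, and from 0.443 to 2.48 CPM on corn stover with a median of 1.15. The 2 highest values belonged to alfalfa hay cows and the lowest to a corn stover cow, with the rest mixed. The log2 difference was -0.58 ± 0.44, with a 95% interval from -1.52 to 0.35 (edgeR adjusted p = 0.99998).

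Reads typical of mammary gland were also found in liver libraries, more so on alfalfa hay. Over 10 other genes with at least 1000 CPM in mammary gland and 1000 times their liver median, livers of alfalfa hay cows 1 to 5 held 146 to 294 ppm of the mammary level and that of cow 6 held 3.39 ppm. Livers of corn stover cows held 0.821 to 35.4 ppm. Reads at that rate would make up 10.9 to 31.9% of the FABP3 seen in livers of alfalfa hay cows 1 to 5, 0.476% in cow 6 and 0.363 to 2.76% on corn stover. For liver LPL the share reached 14.0% on alfalfa hay and 0.422% on corn stover, for CD36 it reached 3.76% and for ABCG2 0.171%. The part of these reads in the diet values of liver was not tested.

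Liver ABCG2, which pumps into bile, ran from 49.5 to 199 CPM on alfalfa hay with a median of 107, and from 55.8 to 167 CPM on corn stover with a median of 105. One alfalfa hay cow lay above all corn stover cows and 1 below. The log2 difference was -0.08 ± 0.31, with a 95% interval from -0.75 to 0.59 (edgeR adjusted p = 0.99998), and its sign turned to 0.02 on library totals. Cow 1 was highest on each diet, at 199 and 167 CPM. Those 2 libraries stood apart on the first principal component and had low TMM factors (0.700 and 0.778), and per library total their ABCG2 levels were 139 and 130 CPM.

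The spread between cows was also read in liver. Within diets the coefficient of variation was 56.4% for LPL, 35.8% for CD36, 58.2% for FABP3 and 42.6% for ABCG2, against a median of 31.5% over all genes in liver. LPL and FABP3 had a larger coefficient than 86.7% and 87.9% of liver genes, ABCG2 than 72.0% and CD36 than 59.8%. Among liver genes within 2-fold of their own level these shares were 92.8% for LPL, 85.8% for ABCG2, 79.4% for CD36 and 76.1% for FABP3. The level class had a median of 29.4% for LPL, 25.8% for ABCG2, 25.3% for CD36 and 44.1% for FABP3.

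**Figure D3:**
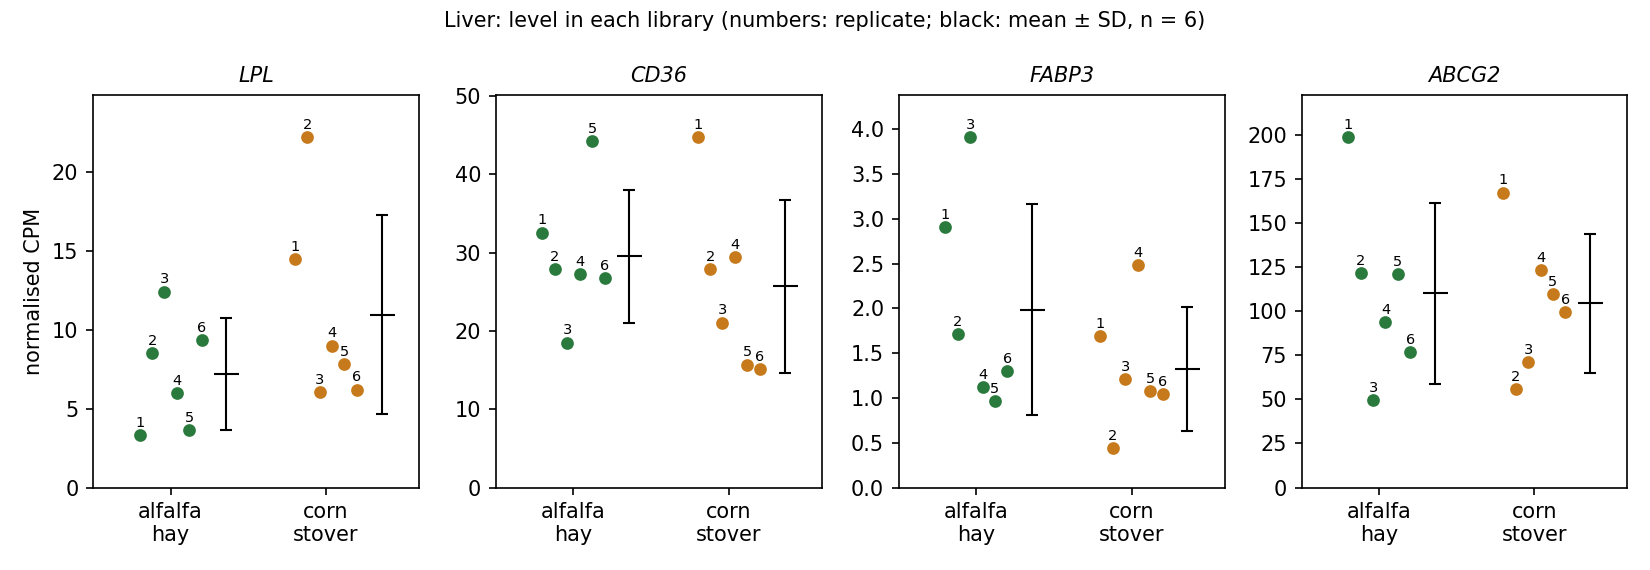
Normalised CPM of the 4 genes in each liver library by diet, drawn as for mammary gland, with axes from 0 that differ between genes. The diets overlap in every panel; LPL is highest in corn stover cow 2, and ABCG2 is highest in cow 1 of each diet.

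A test of whether the diet difference itself differed between the tissues called none of 13760 genes (0%, 700 at an unadjusted p below 0.05; DESeq2 called 74). LPL came closest of the 4, with a mammary diet difference lower than the liver difference by -0.81 ± 0.49 on the log2 scale (95% interval -1.82 to 0.20, edgeR adjusted p = 0.9999). The values were -0.25 ± 0.41 for CD36, 0.32 ± 0.52 for FABP3 and 0.24 ± 0.45 for ABCG2. Opposite signs of LPL in the 2 tissues were therefore not shown to be a difference.

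Milk yield was then set against the 4 genes. Diet and yield go together in these cows, so a relation over all 12 cannot be told apart from the diet contrast, and relations within a diet rest on 6 cows. No gene was related to yield beyond error. Over the 12 cows in mammary gland, log2 CPM correlated with yield at r = 0.322 for LPL (rho 0.224, permutation p = 0.306 for r and 0.487 for rho). For CD36 r was 0.220 (rho 0.245, permutation p = 0.488 and 0.445), for FABP3 0.0212 and for ABCG2 -0.0304. In liver r was -0.161 for LPL, 0.437 for CD36 (permutation p = 0.157), 0.373 for FABP3 and 0.0444 for ABCG2. Adjusted over these 8 relations, no permutation p was below 0.817 for r or below 0.779 for rho.

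Leaving out the 2 cows farthest from the median yield (corn stover cow 6 and alfalfa hay cow 2) moved r to 0.0676 for mammary LPL and to 0.541 for mammary CD36 (permutation p = 0.107). Among corn stover cows alone its mammary level was lower where yield was higher, with r = -0.890 (rho -0.886, exact permutation p = 0.0111, adjusted over 8 relations 0.0889). At the ends of the yield range, cow 6 gave 17.1 kg per day and held 3768 CPM, and cow 1 gave 23.3 kg per day and held 1889 CPM. Among alfalfa hay cows r was -0.275 (exact permutation p = 0.571). On library totals the corn stover value was -0.532 (exact permutation p = 0.274), so it depended on the scaling.

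In liver the corn stover cows gave r = 0.729 for CD36 against yield, in the direction opposite to their mammary gland (exact permutation p = 0.0931, adjusted 0.372). Mammary LPL gave 0.635 within alfalfa hay (exact permutation p = 0.164) and -0.292 within corn stover. For mammary FABP3 the within-diet values were -0.363 on alfalfa hay and -0.483 on corn stover, and for mammary ABCG2 0.399 and -0.0898. None of the 16 within-diet relations passed after adjustment.

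A model across all genes with diet and yield together gave slopes per kg of milk per day. The log2 slope in mammary gland was 0.04 ± 0.06 for LPL (edgeR adjusted p = 0.794), -0.09 ± 0.05 for CD36 (edgeR adjusted p = 0.513), -0.08 ± 0.06 for FABP3 and 0.01 ± 0.06 for ABCG2. No gene passed (0%, with 1178 at an unadjusted p below 0.05). In liver the slopes were 0.10 ± 0.09 for LPL, 0.10 ± 0.06 for CD36, 0.07 ± 0.11 for FABP3 and 0.02 ± 0.07 for ABCG2, and again no gene passed (0%, with 193 at an unadjusted p below 0.05). With yield held in the model, the mammary diet difference of CD36 was -0.99 ± 0.35 (edgeR adjusted p = 0.740), against -0.44 without yield. That of FABP3 was -0.70 ± 0.43 and that of LPL 0.07 ± 0.46. The yields of the diets barely met (lowest 23.308 kg per day on alfalfa hay, highest 23.317 on corn stover). These differences at equal yield therefore extend the slope beyond the yields seen within each diet.

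**Figure D4:**
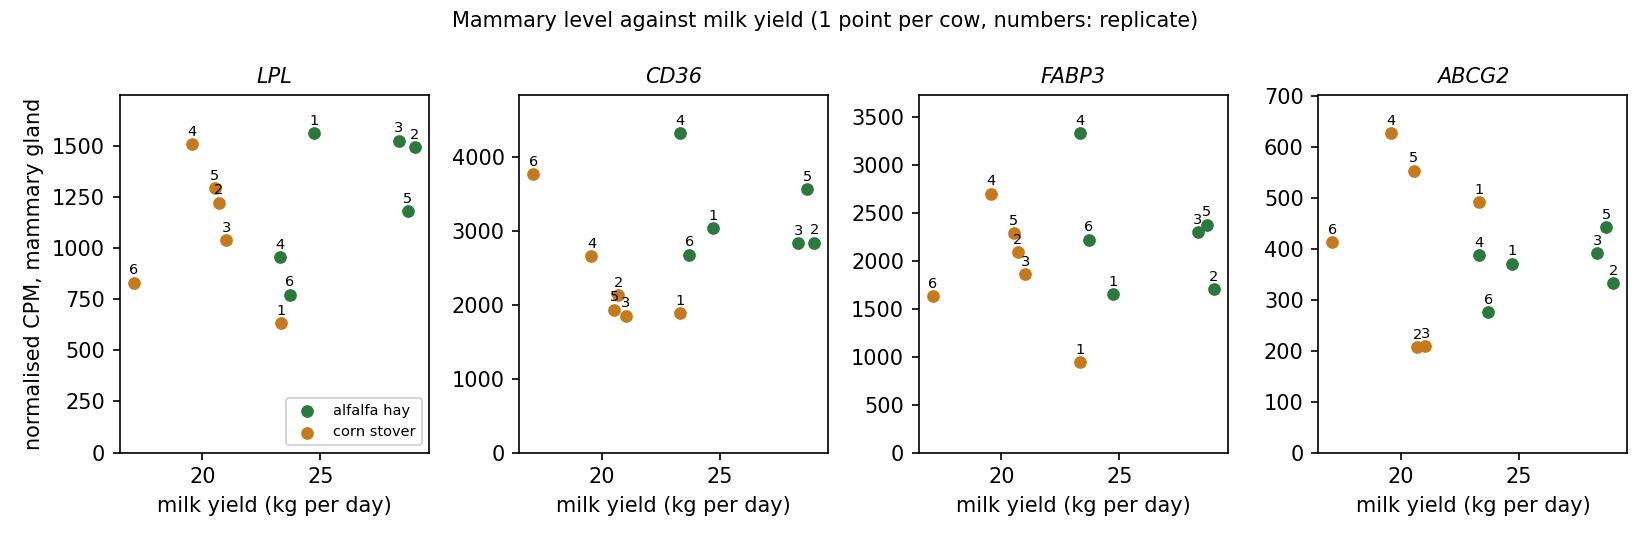
Normalised CPM in mammary gland against milk yield in kg per day, 1 point per cow, numbered within each diet, with axes from 0 for CPM. Among corn stover cows CD36 is highest in cow 6, which gave the least milk, and lowest in cows 1, 3 and 5; over all 12 cows no panel shows a slope beyond error.

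The 4 genes were next compared with each other across mammary libraries, where points share a library and its scaling. Over 12 cows no pair was correlated beyond error: r was 0.411 for LPL and FABP3 (permutation p = 0.187), 0.441 for CD36 and FABP3 (permutation p = 0.151) and 0.0343 to 0.203 for the other 4 pairs, with no p adjusted over 6 pairs below 0.562. Among corn stover cows, LPL and FABP3 ran in the same order in all 6, from cow 1 (632 and 945 CPM) through cows 6, 3, 2 and 5 to cow 4 (1508 and 2700 CPM). There r was 0.976 and rho 1 (exact permutation p = 0.00139, the smallest that 720 pairings give, adjusted over 6 pairs 0.00833). On library totals r was 0.909 (exact permutation p = 0.0111, adjusted 0.0667). Of the corn stover cows, cow 1 had the highest TMM factor (1.38) and cow 4 the lowest (0.823), and the factor divides both levels. The corn stover value was not computed without cow 1. How many other genes reach such an r among these 6 cows was not counted.

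Among alfalfa hay cows LPL and FABP3 pointed the other way, at r = -0.596 (exact permutation p = 0.211). Whether the diets differ in this relation was not tested. Over all 12 cows the value rested on corn stover cow 1: r was -0.0750 without it and 0.492 without alfalfa hay cow 6. Without both, the 2 farthest from the median LPL level, r was -0.0560. Within alfalfa hay, CD36 and FABP3 gave 0.739 with TMM scaling (exact permutation p = 0.117) and -0.62 on library totals, so no direction can be given for that pair.

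**Figure D5:**
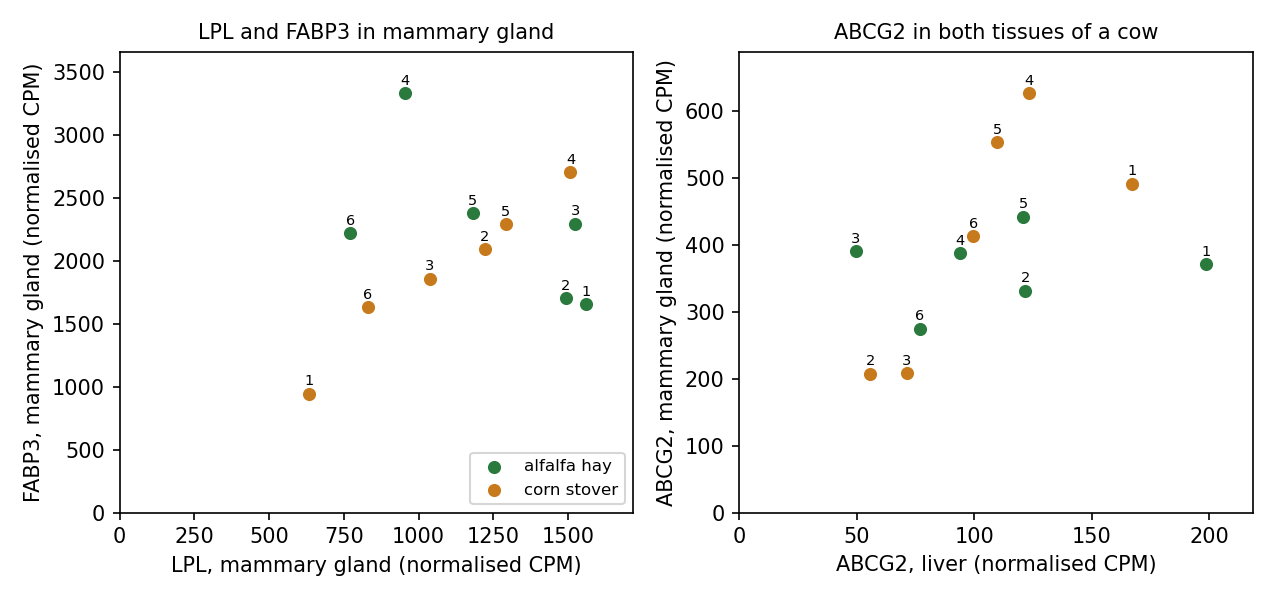
Pairs of values that the text compares across cows, in normalised CPM on linear axes from 0, 1 point per cow, numbered within each diet. The corn stover points of LPL and FABP3 in mammary gland lie in the same order on both axes, from cow 1 to cow 4, and the alfalfa hay points do not.

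The 2 tissues of a cow were compared gene by gene, again over 12 cows. ABCG2 gave the highest value, r = 0.553 (rho 0.510, permutation p = 0.0621 and 0.0934, adjusted over 4 genes 0.248 for r). Without alfalfa hay cows 3 and 1, the livers farthest from the median, r was 0.826 (permutation p = 0.0032, adjusted 0.0126). This exclusion was not planned, and it took cows from the alfalfa hay group only. The ABCG2 value was 0.865 within corn stover (exact permutation p = 0.0319, adjusted 0.128) and 0.135 within alfalfa hay. On library totals the corn stover value was 0.945 (exact permutation p = 0.00417, adjusted 0.0167). The call therefore changed with the 2 livers left out and with the scaling. Reads of liver type in mammary libraries would make up at most 0.109% of mammary ABCG2, and their part in this correlation was not tested. For LPL r was -0.175, for CD36 0.0352 and for FABP3 -0.0973.

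The gene whose mammary levels were most like those of each of the 4 was found among 12023 others by Pearson correlation of log2 CPM over 12 libraries, given as a description. For FABP3 it was ENSBTAG00000027879 (r = 0.957, rho 0.888), whose level was 141 ± 36.1 CPM for alfalfa hay cows and 113 ± 26.1 CPM for corn stover cows (SD, n = 6 each). 12 genes exceeded r = 0.9 with FABP3 and 5 did so with CD36, for which ENSBTAG00000014448 was highest (r = 0.945, rho 0.937). The nearest to LPL was ENSBTAG00000013353 (r = 0.893, rho 0.846) and the nearest to ABCG2 was ENSBTAG00000015917 (r = 0.879, rho 0.832). The genes nearest to LPL, CD36 and ABCG2 were read at low levels. Their means on alfalfa hay and corn stover were 3.11 and 2.445 CPM (LPL), 1.97 and 1.38 CPM (CD36) and 0.767 and 0.890 CPM (ABCG2). For ABCG2 and its nearest gene r was 0.492 within alfalfa hay and 0.970 within corn stover. Over the same libraries the highest r between any 2 of the 4 genes was 0.441. That is the best of 6 pairs, whereas each nearest gene is the best of 12023, so these values cannot be compared.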

How the data were processed

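The authors deposited raw read counts per gene, 1 file per library, for 24616 Ensembl identifiers. The tools named in the submitters' processing notes are HTSeq 0.6.1, TopHat2 2.0.9 and SAMtools 1.1, with the build UMD3.1. The sources used here do not state the annotation release, strand setting or filters, so reads shared with overlapping or near-identical genes cannot be traced. The members and lists were chosen with earlier results of these data known. Matching to the RefSeq gene table found 0 identifiers, so 10 gene and cell marker lists fixed by symbol were not analysed here. The 4 genes are named by the identifiers chosen, and 1 further gene per member by its correlation. Sequences and positions were not used here.

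Counts were tested with edgeR 4.0.16 (quasi-likelihood, TMM, filterByExpr with minimum count 10 and minimum total 15) in R 4.3.3, adjusted over all genes at a threshold of 0.05. Diet and yield were fitted in the 12 libraries of a tissue, tissue and interaction in all 24. The fits of tissue and interaction used the mean of each tissue and diet, with the cow as a block only as an alternative. SE is the log2 difference divided by the square root of F. Correlations (scipy 1.17.1) used log2 CPM with a prior count of 2 and two-sided tests, by 100000 permutations over all cows and every pairing within a diet. Alternatives were DESeq2 1.42.0, limma 3.58.1 voom, other scalings, filters and covariates, and leaving out each library. The tests were checked on simulated data. Replicates were separate cows, and no libraries held identical counts. Liver and mammary libraries were paired by cow because the labels' measurements matched in 12 of 12 (correlation of their deviations -0.139 to 0.230). Of the 12 mammary libraries, 5 correlated best with the liver of their own cow among the livers of that diet.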

Additional observations from a re-analysis of the deposited data

How the results depend on the processing

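All 4 tissue differences kept their direction and passed the test under every setting tried. No diet, interaction or yield difference of the 4 genes passed it under any. Of 1116 values recomputed, 1020 kept their direction and side of the threshold. The causes of the changes below were not tested.

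The diets share cow numbers but not cows. Same-numbered libraries deviated together at -0.192 to 0.242 in mammary gland and 0.0276 to 0.549 in liver, and 3 and 4 of 6 correlated best with their own number. With the replicate number as a block, mammary calls went from 0 to 12 genes. The block values of the diet difference in mammary gland were -0.20 for LPL, -0.47 for CD36, -0.27 for FABP3 and 0.08 for ABCG2. The block changed no other call, and with the cow as a block the tissue differences were 8.13, 7.67, 11.41 and 2.88.

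DESeq2 called 42 (mammary diet), 3 (liver diet), 1 (liver yield) and 74 genes (interaction) in place of 0. One fit of all libraries called 3 for liver diet. Yield without diet called 2 in mammary gland, and for liver yield no filter and yield per kg of dry matter each called 1.

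Sign turns of diet differences were 0.074 for mammary LPL, 0.33 for liver CD36 and 0.033 for liver ABCG2 with yield as a covariate, and for liver ABCG2 also 0.074 with days in milk and 0.024 on library totals. Sign turns of yield slopes in mammary gland were -0.071 (LPL) and -0.017 (ABCG2) within corn stover, -0.23 (LPL) and -0.12 (ABCG2) for dry matter intake, and 0.017 (CD36), 0.0014 (FABP3) and -0.015 (ABCG2) without diet. In liver they were -0.00024 (CD36) and -0.098 (FABP3) for dry matter intake, -0.032 (LPL) without diet, and for ABCG2 -0.0019 on library totals and -0.023 within alfalfa hay.

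On library totals, correlations with yield turned to 0.069 (mammary LPL, corn stover), 0.25 (mammary CD36, alfalfa hay), 0.052 and 0.12 (mammary ABCG2, all and corn stover), -0.11 (liver FABP3, corn stover), -0.072 and -0.063 (liver ABCG2, all and corn stover). Pairs turned to -0.0074 and 0.69 (LPL and CD36, all and alfalfa hay), -0.12 (LPL and ABCG2, corn stover), -0.13, -0.62 and -0.58 (CD36 and FABP3, all, alfalfa hay and corn stover) and -0.28, -0.41 and -0.22 (FABP3 and ABCG2, likewise). LPL and FABP3 within corn stover lost its call at 0.91. Between tissues the values turned to 0.16 (LPL, corn stover), -0.017 and -0.30 (CD36, all and alfalfa hay), 0.28, 0.29 and 0.099 (FABP3, all, alfalfa hay and corn stover) and -0.0050 (ABCG2, alfalfa hay), and ABCG2 within corn stover gained a call at 0.94. With RLE factors LPL and CD36 within corn stover turned to 0.0087.

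Without the 2 farthest cows, yield correlations turned to -0.0098 (mammary FABP3), 0.079 (mammary ABCG2) and -0.027 (liver ABCG2), pairs to -0.30 (LPL and CD36), -0.056 (LPL and FABP3) and -0.019 (CD36 and ABCG2), and ABCG2 between tissues gained a call at 0.83. For the comparison between tissues this exclusion was not planned.

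With each cow or library left out, values that crossed 0 ran as follows. The liver ABCG2 diet difference ran from -0.25 to 0.18. Interactions ran from -0.56 to 0.048 (CD36) and -0.0035 to 0.41 (ABCG2), with 0 to 2 genes called. Yield slopes ran from -0.0067 to 0.026 (mammary ABCG2), -0.0040 to 0.11 (liver FABP3) and -0.047 to 0.060 (liver ABCG2). Yield correlations ran from -0.10 to 0.12 (mammary FABP3), -0.17 to 0.14 (mammary ABCG2), -0.30 to 0.048 (liver LPL) and -0.058 to 0.34 (liver ABCG2). Pairs ran from -0.22 to 0.22 (LPL and CD36), -0.075 to 0.58 (LPL and FABP3), -0.059 to 0.32 (LPL and ABCG2), -0.022 to 0.39 (CD36 and ABCG2) and -0.13 to 0.35 (FABP3 and ABCG2). Between tissues they ran from -0.29 to 0.048 (LPL) and -0.16 to 0.28 (CD36). Liver FABP3 rests on 13 to 116 reads per library.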
